A study of Mus musculus with 12 samples.

Results

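The Fc receptor genes were 9 mouse genes that encode receptors for the constant part of antibodies, or proteins of the same families, namely Fcgr1, Fcgr2b, Fcgr3, Fcgr4, Fcer1a, Fcer1g, Fcer2a, Fcrla and Fcgrt. Their regions were the peaks of the master peak-list whose gene name, that of the nearest transcription start site (TSS), was 1 of these 9. Of the 84243 peaks in the list, 37 (0.0439%) were named for 8 of the 9 genes, and no peak was named for Fcer1a. Accessible chromatin had been mapped with a transposase that cuts open DNA (ATAC-seq) in 6 sorted blood cell types of wild-type C57BL/6 mice aged 8 to 12 weeks, with 2 replicates each. Hematopoietic stem cells (HSCs, cKit+ Lin- Sca1+ Flk2- Slamf1+) were compared with megakaryocyte progenitors (MkPs, CD41+), erythroid progenitors (EPs, CD71+), granulocyte/macrophage cells (GMs, Gr1+ Mac1+), B cells (B220+ CD43-) and T cells (CD3+ CD25-). The labels gave bone marrow as the source of all but the T cells, for which they gave thymus, while the study's methods describe isolation from bone marrow. The 12 samples entered 1 pooled list, so a peak stands for DNA that was open in at least 1 of these cell types, and the list does not tell which. It gives no reads per peak and its score is 0 for all peaks. Depth is therefore unknown, no value has an error between replicates, and the comparisons below are descriptions without a test.

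Fc receptors tie antibodies to the cells that act on them. The activating receptors for IgG, Fcgr1, Fcgr3 and Fcgr4, bind immune complexes on myeloid cells and signal through the common gamma chain, Fcer1g, whose phosphorylated tail recruits the kinase Syk. Fcgr2b is the inhibitory IgG receptor of B cells and myeloid cells and recruits the phosphatase Inpp5d. Fcer1a is the IgE-binding chain of the high-affinity receptor of mast cells and basophils, whereas Fcer2a (CD23) is the low-affinity IgE receptor of B cells and is a lectin. Fcrla is an intracellular relative found in B cells, and Fcgrt is the heavy chain of the neonatal Fc receptor, which pairs with B2m and rescues IgG from breakdown.

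Of the 9 genes, 7 had a promoter peak, defined as a peak centred within 500 bp of the TSS. Across the 21000 protein-coding RefSeq genes, 54.8% had one, and 77.3% were named by at least 1 peak of any kind. The 7 promoter peaks made up 18.9% of the 37, against 15.6% of the whole list. All 7 were centred between 18 and 108 bp from the TSS. Fcgr4 and Fcer1a were the genes without one. The sequence before the TSS is given for 7 of the genes to set promoters with a peak beside the 2 without one, and to show how few CpG sites they carry. Each run is the 150 bases upstream of the TSS, 5′ to 3′ on the strand of the gene, from RefSeq (GRCm38.p6, the mm10 build), and capitals mark exact matches to 1 of 15 transcription factor consensus strings.
Fcgr1, chr3:96293970-96294119, minus strand: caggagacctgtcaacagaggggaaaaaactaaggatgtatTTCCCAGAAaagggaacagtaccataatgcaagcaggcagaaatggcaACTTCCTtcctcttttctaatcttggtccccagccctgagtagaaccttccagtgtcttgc
Fcgr2b, chr1:170976072-170976221, minus strand: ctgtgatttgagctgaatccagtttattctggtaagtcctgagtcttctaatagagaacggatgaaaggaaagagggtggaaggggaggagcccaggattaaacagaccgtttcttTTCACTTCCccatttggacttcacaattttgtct
Fcgr3, chr1:171059404-171059553, minus strand: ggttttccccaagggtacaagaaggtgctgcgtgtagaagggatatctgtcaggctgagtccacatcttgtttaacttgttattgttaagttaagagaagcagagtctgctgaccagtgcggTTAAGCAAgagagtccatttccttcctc
Fcrla, chr1:170927584-170927733, minus strand: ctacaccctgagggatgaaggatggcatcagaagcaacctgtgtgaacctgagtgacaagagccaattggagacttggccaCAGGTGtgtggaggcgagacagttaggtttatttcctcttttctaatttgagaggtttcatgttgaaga
Fcer1g, chr1:171234350-171234499, minus strand: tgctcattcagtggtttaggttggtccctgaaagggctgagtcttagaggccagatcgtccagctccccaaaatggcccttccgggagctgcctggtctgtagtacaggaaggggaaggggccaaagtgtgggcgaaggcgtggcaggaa
Fcgr4, chr1:171018776-171018925, plus strand: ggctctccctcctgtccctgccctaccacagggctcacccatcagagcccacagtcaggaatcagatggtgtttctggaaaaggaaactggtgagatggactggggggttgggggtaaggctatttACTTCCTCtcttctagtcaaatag
Fcer1a, chr1:173227230-173227379, minus strand: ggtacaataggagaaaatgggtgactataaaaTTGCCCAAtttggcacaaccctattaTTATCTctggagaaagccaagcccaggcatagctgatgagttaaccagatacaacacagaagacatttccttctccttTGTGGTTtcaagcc
In the first 5 of these runs all 150 bases lay inside a master peak, and in the last 2 none did. The capitals mark a STAT and an ETS string in Fcgr1, an ETS-IRF composite in Fcgr2b, a CEBP string in Fcgr3, an E-box in Fcrla, a PU.1 string in Fcgr4, and CEBP, GATA and RUNX strings in Fcer1a. The run of Fcer1g held none. The runs of Fcgr1, Fcgr4 and Fcer1a held 0 CpG dinucleotides, that of Fcrla 1, those of Fcgr2b and Fcgr3 2 each, and that of Fcer1g 4.

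The number of peaks per gene ran from 9 to 0, beside a median of 2 over all protein-coding genes. Fcgr2b had the most, with 9 peaks, a count below which 90.1% of genes fell. Fcgr4 followed with 8 peaks (87.8% of genes had fewer), although none of them was a promoter peak. Fcrla and Fcgr3 had 5 each (75.4%). This order holds for the nearest TSS only. Under the basal plus extension rule, which links a peak to several genes, Fcgr4 had 17, Fcgr3 15 and Fcgr2b 14, and without the peaks near tRNA genes, described below, Fcgr4 had 5.

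The genes outside the run from Fcrla to Fcgr3 had fewer. Fcer2a had 4 peaks, Fcgr1 had 3, Fcer1g had 2 and Fcgrt had 1. Fcgrt, the neonatal receptor, and Fcer1g, the shared gamma chain, thus had at most 1 peak beside their promoter peak. The share of all genes with fewer peaks was 68.0% for Fcer2a, 57.3% for Fcgr1, 42.0% for Fcer1g and 22.7% for Fcgrt.

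**Figure D1:**
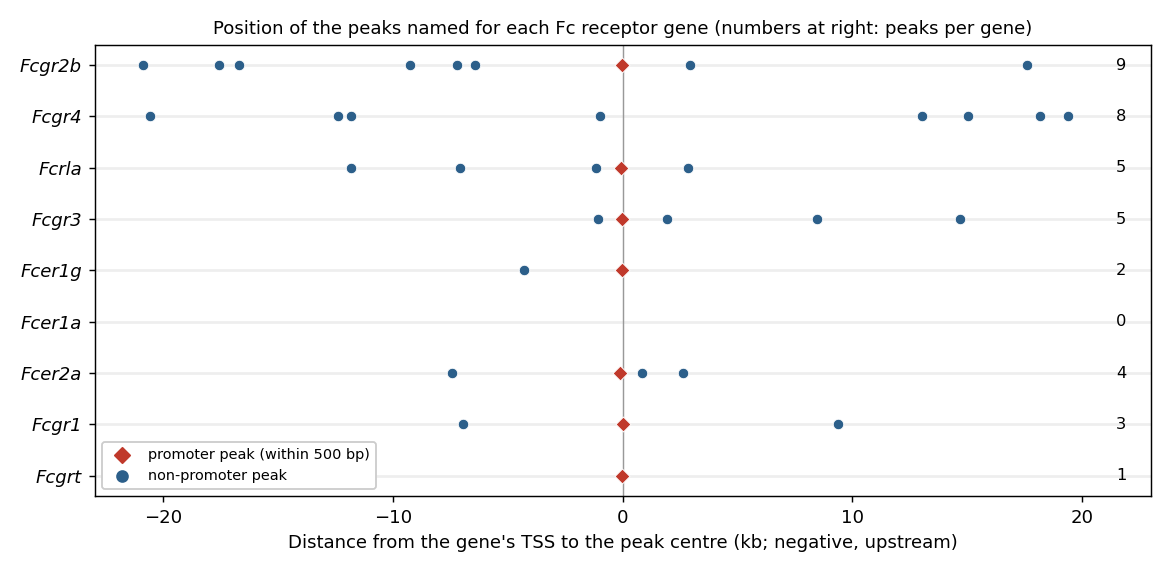
Position of the 37 peaks named for Fc receptor genes. The x axis gives the signed distance in kb from the nearest TSS of the gene to the centre of the peak. Each row is a gene, red diamonds are promoter peaks and blue circles are non-promoter peaks. The Fcer2a peak 2643 bp downstream is placed from another TSS than the other peaks of that gene. A promoter peak is seen in 7 rows, Fcgr4 has 4 peaks on each side but none at the TSS, and Fcer1a has 0 peaks.

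The 30 non-promoter peaks lay nearer to their genes than those of the list as a whole. Their median distance to the TSS was 8871 bp, against 22261 bp for all non-promoter peaks, and the farthest was 20881 bp away. Within 10 kb there were 17 of them, and within 5 kb there were 9. Upstream of the TSS were 17 (56.7%, against 41.7% of all non-promoter peaks) and downstream were 13. In a region dense with TSSs or peaks a nearest-TSS rule gives short distances by construction, and the part of that in these values was not tested.

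By annotation class, 21 of the 37 peaks were intergenic (56.8%, against 37.6% of the list) and 6 were intronic (16.2%, against 41.5%). Another 8 were called promoter-TSS, 1 lay in an exon, the last exon of Fcgr1 (exon 6 of 6, 9378 bp downstream), and 1 lay at the transcription termination site of Fcgr3. The promoter-TSS class held 1 peak more than the promoter peaks because it took in the Fcgr4 peak 970 bp upstream of the TSS. The classes are those of the deposited annotation. Some intergenic peaks were centred inside a RefSeq gene span, such as those 1144 bp upstream of Fcrla and 1083 bp upstream of Fcgr3. A repeat, tRNA genes included, was named for 9 of the 37 peaks (24.3%, against 15.1%), among them LTR elements upstream of Fcgr2b and at Fcgr3.

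Of the 37 peaks, 29 were on chromosome 1. Fcrla, Fcgr2b, Fcgr4, Fcgr3 and Fcer1g lie there in this order within 317 kb (chr1:170917594-171234349), and all but Fcgr4 are on the minus strand. The interval held 45 master peaks, of which 27 were named for these genes and 18 for their neighbours, while the 2 peaks of Fcer1g lay just past its edge. The density was 14.2 peaks per 100 kb, against 2.99 over chromosome 1 and 3.09 over the genome. Among 54388 windows of the same length placed every 50 kb, the median held 6 peaks and 0.636% held as many. The median spacing of neighbouring peaks was 4554.5 bp, against 9187.5 bp for the list. With 50 kb added on each side, the interval held 60 peaks, or 14.4 per 100 kb. The high density was thus not confined to the stretch between the receptor genes.

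The peaks were not spread evenly over the cluster. From Fcrla to Fcgr3 there were 28 in 148 kb, or 18.9 per 100 kb, with a median spacing of 3300 bp. From Fcgr3 to Fcer1g there were 17 in 164 kb, or 10.4 per 100 kb. The densest of the intervals measured was that between Fcgr2b and Fcgr4, with 11 peaks in 42.9 kb, or 25.7 per 100 kb. Fcgr2b is on the minus strand and Fcgr4 on the plus strand, so the inhibitory and the activating receptor face each other head to head across it.

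**Figure D2:**
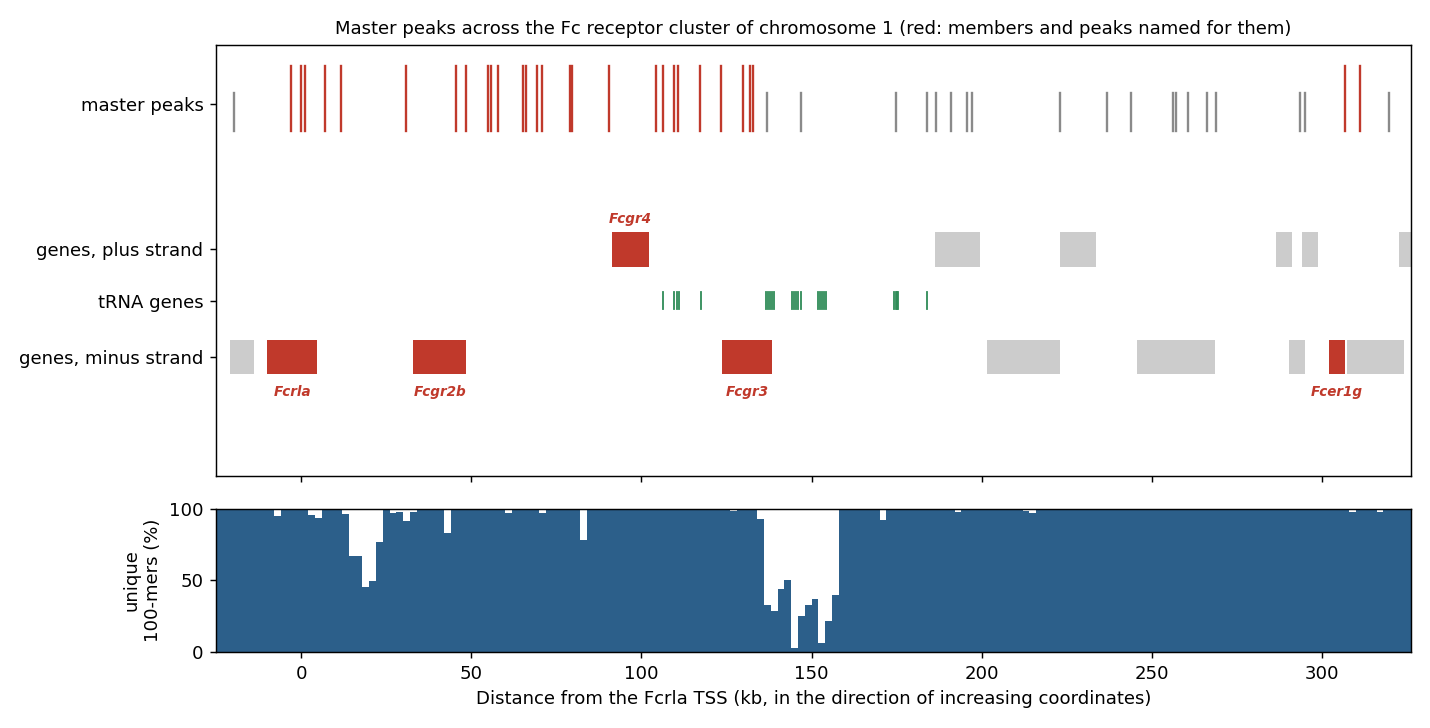
Map of the chromosome 1 cluster. The x axis of both panels gives the distance from the Fcrla TSS in kb. The upper panel shows master peaks (long red lines, named for an Fc receptor gene, and short grey lines, named for another gene), protein-coding genes on each strand and tRNA genes, and the lower panel gives the percentage of 100-mers that occur once in the genome in bins of 2 kb. Red peaks crowd between Fcrla and Fcgr3, and uniqueness drops to 2.75% in the stretch that begins at the far end of the Fcgr3 span.

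Within this interval, 7 peaks were named for Fcgr2b and 4 for Fcgr4. Those of Fcgr2b were its promoter peak, 18 bp upstream, and peaks 6433, 7204, 9249, 16698, 17581 and 20881 bp upstream. Those of Fcgr4 were 970, 11832, 12394 and 20566 bp upstream. The last peak of each gene lay near the middle of the interval, where the name passes from one gene to the other, so the nearest TSS does not settle which gene it belongs to. The other 2 peaks of Fcgr2b lay in its first intron, 2930 bp downstream of the TSS, and past its 3′ end, 17637 bp downstream.

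Fcgr4 had 0 peaks inside its span of 10836 bp (chr1:171018926-171029761). Its nearest peak was centred 970 bp upstream, and its 4 downstream peaks, 13030, 15032, 18170 and 19392 bp from the TSS, lay between its 3′ end and that of Fcgr3. All 100-mers within 1 kb of the Fcgr4 TSS were unique in the genome (100%). The peak nearest to the TSS is shown because it was the closest open region to the only IgG receptor TSS without a promoter peak.
Fcgr4, central 200 bases of the peak 970 bp upstream, chr1:171017856-171018055, plus strand: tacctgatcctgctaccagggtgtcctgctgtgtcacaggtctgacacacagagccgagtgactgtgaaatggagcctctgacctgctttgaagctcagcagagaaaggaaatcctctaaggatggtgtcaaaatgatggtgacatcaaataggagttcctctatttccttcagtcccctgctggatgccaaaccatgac
No consensus string was found in these bases, and the whole peak held a single one, an E-box (CAGGTG).

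Transfer RNA genes lay at or next to most of the downstream peaks of Fcgr4. Of the 37 peaks, 4 were within 50 bp of a tRNA gene, 3 of them downstream peaks of Fcgr4 and 1 a downstream peak of Fcgr3. For 2 of these, both of Fcgr4, the deposited annotation named the tRNA gene itself, whereas it did so for 32 peaks (0.0380%) of the whole list. The Fcgr4 peak 19392 bp downstream held 34 CpGs, more than 97.5% of non-promoter peaks, and was annotated as a CpG island, and that 15032 bp downstream held 23. Without the 4 peaks, Fcgr4 would have 5 and Fcgr3 4. Whether these peaks belong to the tRNA genes or to the receptor genes was not tested.

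Fcgr3, an activating receptor whose extracellular part is closely related to that of Fcgr2b, had 5 peaks. They were centred 1083 and 19 bp upstream of its TSS and 1929, 8493 and 14703 bp downstream. Neighbouring centres were 1064 to 6564 bp apart. The 2 curated transcripts of Fcgr3 start 9 bp apart, the RefSeq Select one at position 171059403, whereas 5 predicted transcripts start farther upstream and stretch the RefSeq span (chr1:171051169-171065915). A peak in that upstream stretch was named for the microRNA gene Mir6546 and was centred 47 bp from its TSS. The same peak also covered the tRNA gene n-TGtcc1. Unique 100-mers made up 88.1% of the Fcgr3 span, the lowest share of the 9 genes, against 97.7% for Fcgr2b.

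Fcrla had 5 peaks, centred 11835, 7062, 1144 and 47 bp upstream of its TSS and 2873 bp downstream, in its first intron. The peak 1144 bp upstream held 5 of the consensus strings described below, the ETS-IRF composite, the E-boxes CAGCTG and CAGGTG, EBF and KLF. The peak 11835 bp upstream also held 5, ETS, CEBP, RUNX, GATA and STAT. Fcrlb, the other Fc receptor-like gene next to it, had 2 peaks and no promoter peak.

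Fcer1g, the common gamma chain, had 2 peaks. The first was its promoter peak, 22 bp upstream of the TSS, and the second was 4308 bp upstream. Fcer1g is the smallest gene of the set, at 4778 bp, and no peak was centred within its span.

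Repeated sequence limits what the list can show in places, since reads that map to several places had been left out by the authors. All 100-mers of the 37 peaks were unique. Across the cluster 93.1% were. In a stretch of 22 kb, from 136 to 158 kb past the Fcrla TSS, the share ran from 2.75 to 50.1% per bin of 2 kb. It held 15 of the 25 tRNA genes of the cluster and 2 peaks, both named for Mir6546 and both covering a tRNA gene. A shorter stretch of 4 kb, from 18 to 22 kb past the Fcrla TSS, had 45.7 to 49.3% unique and 0 peaks, and lay within the longest spacing of the run from Fcrla to Fcgr3, 19016 bp. A lack of peaks in these stretches is therefore not read as closed chromatin.

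Fcer1a also lies on chromosome 1, about 2 Mb past Fcer1g (chr1:173221269-173227232), and stood apart from the cluster. The nearest peak to its TSS was 86.6 kb away, on the side of Ackr1, and on the other side the nearest was 442 kb away. The gap between these 2 peaks was 528 kb. It was the 521st longest of 84222 gaps between neighbouring peaks (0.619% were as long), and 10.0% of all protein-coding genes had their nearest peak as far from the TSS. The gap held 9 protein-coding genes, of which 6 were olfactory receptor genes, and the others were Apcs, Mptx2 and Fcer1a itself.

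All 100-mers of the Fcer1a span were unique (100%), as were those within 1 kb of its TSS, and 93.3% of the gap was unique. The part of repeated sequence in the length of the gap was not tested. The 150 bases before its TSS, printed above, held CEBP, GATA and RUNX strings, and no peak covered them. Mast cells and basophils, the cells of its receptor, were not among the sorted cell types.

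**Figure D3:**
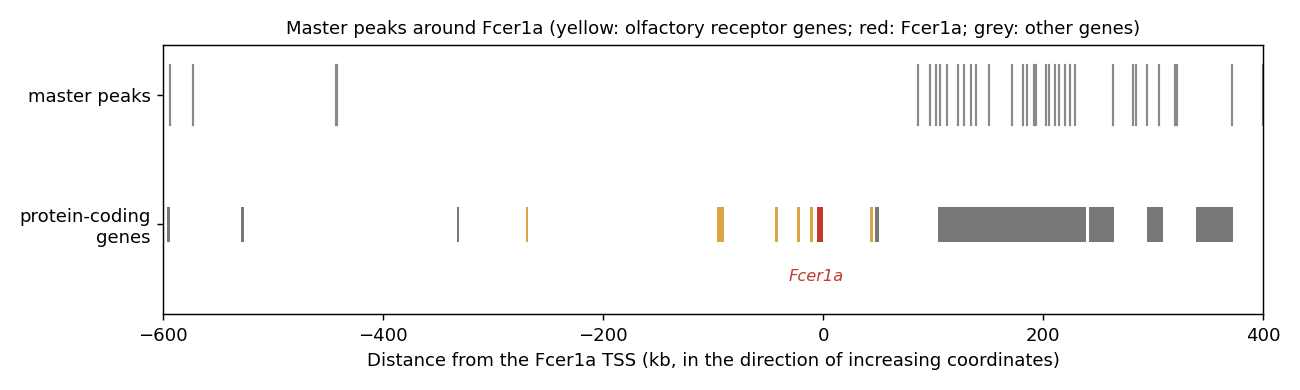
Master peaks and protein-coding genes around Fcer1a. The x axis gives the distance from the Fcer1a TSS in kb, grey lines above are master peaks, and boxes below are genes (red, Fcer1a, yellow, olfactory receptor genes, grey, others). The stretch without peaks runs from 442 kb on the left to 86.6 kb on the right.

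Of the genes on other chromosomes, Fcgr1, the high-affinity IgG receptor, lies on chromosome 3 (chr3:96282909-96293969). It had a promoter peak centred 23 bp downstream of the TSS, a peak in its last exon 9378 bp downstream, and a peak 6935 bp upstream. Its flanking genes were the histone gene H2bc18, 12716 bp away, and BC107364, 139818 bp away.

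Fcer2a, the IgE lectin receptor of B cells, lies on chromosome 8 (chr8:3680280-3694174). Its 4 peaks were centred 7447 and 108 bp upstream of a TSS and 829 and 2643 bp downstream, the last 2 in introns. Fcer2a has 3 curated TSSs, and the distance of 2643 bp is from another of them than the other distances. The centres of the 2 intronic peaks were 5598 bp apart. Fcgrt lies on chromosome 7 (chr7:45092993-45103822) and had only its promoter peak, 25 bp upstream of the TSS. Its neighbour Rcn3 is 670 bp away.

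The promoter peaks of the Fc receptor genes were poor in CpG. They held 4 to 15 CpGs, with a median of 5, against a median of 38 for all 13171 promoter peaks and 6 for all non-promoter peaks. Their median GC content was 47.7%, against 63.3% for all promoter peaks, and the median ratio of observed to expected CpG was 0.183 against 0.778. The median GC content of all non-promoter peaks was also 47.7%.

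The genes differed in how far they went. Fcrla and Fcgr3 had 4 CpGs each, and 1.75% of all promoter peaks had fewer. Fcgr1 and Fcer2a had 5 (2.70% had fewer) and Fcgrt had 7 (4.81%). Fcgr2b with 11 (9.31%) and Fcer1g with 15 (13.1%) were the highest, so all 7 fell in the lowest part of the distribution. Fcer1g, the chain shared by many receptors, also had the highest GC content, 57.1%, and Fcgr3 the lowest, 44.9%.

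**Figure D4:**
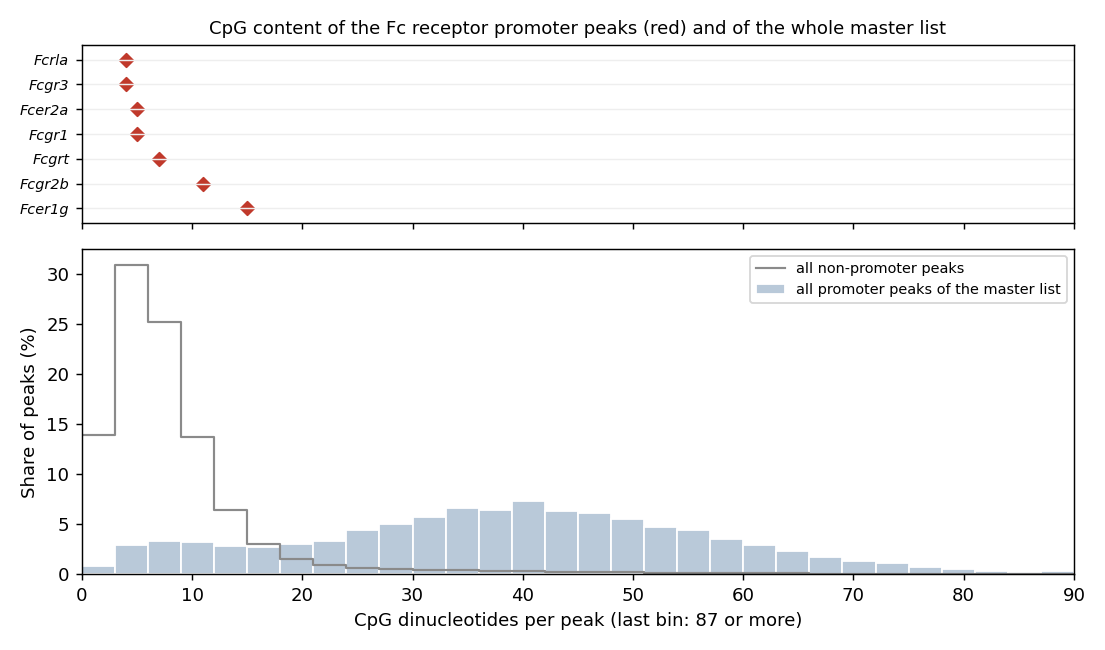
CpG dinucleotides per peak. The upper panel gives the count in the promoter peak of each Fc receptor gene (red diamonds), and the lower panel gives the share in percent of all promoter peaks (blue bars) and of all non-promoter peaks (grey line) by the same count, in bins of 3. The 7 red diamonds lie between 4 and 15, whereas the median of all promoter peaks is 38.

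The 30 non-promoter peaks did not stand apart in composition. Their median GC content was 47.1% against 47.7% for all, and their median CpG count was 7 against 6. Single peaks ranged from 2 to 34 CpGs, and both with most CpGs were the downstream peaks of Fcgr4 named above. Repeat-masked bases had a median of 14.9% per peak, against 11.2% for all.

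Consensus strings of 15 transcription factor families were searched on both strands of each peak. A CEBP string (TTGCNNAA), of a family that drives myeloid genes, was in 11 of the 37 peaks (29.7%, against 19.3% of all peaks). The ETS-IRF composite (GGAANNGAA), which PU.1 and IRF proteins bind together in B and myeloid cells, was in 9 (24.3%, against 16.1%), and STAT (TTCNNNGAA) was in 8 (21.6%, against 14.1%). The string AGATAA, which GATA factors bind in erythroid and megakaryocyte genes, was in 10 of the 37, against 24.1% of all peaks. In the central 200 bp, CEBP was in 4 of the 37 (against 8.84% of all peaks) and the ETS-IRF composite in 7 (7.67%). STAT was in 3 there (5.31%) and GATA in 3 (11.2%). With 37 peaks and 15 strings, such differences of a few peaks are given as counts only.

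Other strings were at or below the share in the whole list. ETS (AGGAAGT) was in 8 peaks (21.6%, against 24.7%), and PU.1 (GAGGAAGT), which contains the ETS string, was in 3 (8.11%, against 9.39%), all 3 of them peaks of Fcgr2b. RUNX (TGTGGTT) was in 5 (13.5%, against 16.1%), and the E-boxes CAGCTG and CAGGTG were in 8 and 10 of the 37, against 29.8 and 32.6% of all peaks. AP-1 (TGANTCA) was in 4, against 15.3% of all peaks. EBF (CCCNNGGGA), CACGTG and KLF (CCACACCC) were in 2 each, against 9.84, 9.26 and 5.88%. OCT (ATGCAAAT) and CTCF were in 1 each, against 3.37 and 7.68%. The CTCF match was in an intronic peak of Fcer2a. In 3 peaks, 2 of Fcer2a and 1 of Fcgr2b, there was no match, against 7.92% of all peaks, and the median was 2 families per peak, as over the whole list.

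Of all 37, the peak in the first intron of Fcgr2b held the most families, 7. PU.1 and ETS count separately in the 7, although its ETS matches lay inside its PU.1 matches. The 200 bases of it that held the most are shown for that reason, together with the central 200 bases of the upstream peak of Fcgr1, which held the ETS-IRF composite on both strands. Both were chosen after their values were seen.
Fcgr2b, first intron, chr1:170973169-170973368, minus strand: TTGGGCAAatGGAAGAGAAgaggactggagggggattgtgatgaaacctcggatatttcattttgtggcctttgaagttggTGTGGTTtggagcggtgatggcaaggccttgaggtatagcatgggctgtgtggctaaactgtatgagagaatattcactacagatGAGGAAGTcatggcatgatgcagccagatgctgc
Fcgr1, 6935 bp upstream, chr3:96300804-96301003, minus strand: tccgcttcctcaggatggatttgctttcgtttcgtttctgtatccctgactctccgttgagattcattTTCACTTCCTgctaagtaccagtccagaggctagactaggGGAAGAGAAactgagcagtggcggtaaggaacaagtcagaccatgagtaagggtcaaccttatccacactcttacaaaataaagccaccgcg
In the first run the capitals mark CEBP next to an ETS-IRF composite, then RUNX, then PU.1. This CEBP match and the composite lay 223 and 213 bp from the centre of the peak, near its edge. In the second they mark an ETS-IRF composite that overlaps an ETS string, and a second composite on the other strand. A match is a run of letters and not a shown binding site.

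In the promoter windows of RefSeq, the PU.1 string was found only in Fcgr4 among the 9 genes, and 3.20% of 32851 windows held it. The ETS string was in Fcgr1 and Fcgr4 (9.35% of windows), CEBP in Fcgr3, Fcer1a and Fcgrt (10.8%), and the ETS-IRF composite in Fcgr2b (8.24%). Fcer1a held 5 of the strings, CEBP, RUNX, GATA and both E-boxes, the most of the 9. Each of the 9 windows held at least 1 of the strings.

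Other genes of the pathway were taken from 2 lists. All 21 Fc receptor signalling genes had a peak, and 20 had a promoter peak, with a median of 8 peaks per gene, beside 77.3%, 54.8% and a median of 2 over all protein-coding genes. The kinase gene Prkcb had 29 peaks and Fyn 16, and Syk, Plcg2 and Inpp5d, the kinase, phospholipase and phosphatase of these receptors, had 15 each. Btk, a kinase of B and myeloid cells, was the 1 without a promoter peak. The median of the 9 receptor genes was 4.

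Of 12 other Fc receptor family genes, 10 had a peak and 6 had a promoter peak, with a median of 3, counts near the 77.3 and 54.8% of all genes. Ms4a2, the beta chain that joins Fcer1a in the mast cell receptor, had 0 peaks, as did Fcgbp, an IgG-binding mucus protein. Mast cells were not among the sorted cell types. Fcrlb, Fcrl6, Fcamr and Pigr had peaks but no promoter peak. Fcmr, the IgM receptor, had the most, 5, followed by Fcrl1, Fcamr and B2m with 4 each.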

How the data were processed

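ATAC-seq of 12 samples, 2 replicates of each of 6 cell types, was available as 1 annotated peak table. Per the study's methods, the authors ran the ENCODE ATAC-seq pipeline on mm10, in which multimapping reads were dropped, joined the optimal Irreproducible Discovery Rate lists of each cell type, kept non-overlapping peaks with chromVAR, and annotated them with HOMER (4.10.2 per the labels). The score that the authors deposited was 0 for every peak and was not used. Positions and distances to the TSS were used as deposited, with no normalization. Gene spans, TSSs and sequence came from NCBI RefSeq (release 108, GRCm38.p6), and promoter windows from its table, in which all 9 genes were matched. All 37 deposited distances were within 2 bp of those to a curated RefSeq TSS. Motifs were exact consensus strings on both strands, and 100-mers were counted on both strands of 66 assembled sequences. Both searches were tested on simulated data. Python 3.11.15 with pandas 2.3.3, numpy 2.4.6, pysam 0.24.0 and biopython 1.88 were used.

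The members and gene lists were chosen with earlier results of these data known. Genes named were the 9 members, their neighbours in the cluster and nearest flanking genes, and, from the 2 lists, those without a peak or promoter peak and the 3 with the most peaks, ties included. Some neighbouring genes are not reported here. Alternatives were other promoter and motif limits, other rules for assigning peaks to genes, and other edges of the cluster.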

Additional observations from a re-analysis of the deposited data

How the results depend on the processing

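Of 15 alternatives, 10 left their result within 1.5 times its value and 5 did not. The number of genes with a promoter peak was 6 within 100 bp, 7 by RefSeq TSSs and 8 within 1000 bp, and that of promoter peaks was 6 to 9. The number of peaks assigned to the genes depended on the rule: 37 by nearest TSS, 12 inside the gene spans, 28 with 5 kb added, 24 within 10 kb of the TSS and 56 by the basal plus extension rule. Leaving out the 4 peaks near tRNA genes, an alternative chosen after seeing the data, left 33. The density of the cluster was 14.2 peaks per 100 kb, 14.4 with 50 kb added on each side, and 18.9 from Fcrla to Fcgr3, also chosen after seeing the data. Of 555 pairs of a peak and a motif, 84 had a match, 42 in the central 200 bp and 435 with 1 mismatch allowed, so the motif counts rest on exact matching over the whole peak.

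A stricter score limit was not run because every score is 0, and leaving out replicates was not run because the list has no values per sample. No paired analysis was possible because the result comes from no test. The list gives no depth and no cell type for a peak.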

Other observations

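Among the neighbours of the Fc receptor genes in the cluster, Cfap126 was named by 6 peaks, Pcp4l1 by 5, Mir6546 by 2, and Sdhc, Apoa2 and Tomm40l by 1 each, while Nr1i3 was named by 0. Promoter peaks were seen at Sdhc, Pcp4l1, Tomm40l and Mir6546, and that of Mir6546 also covered a tRNA gene. Of the 25 tRNA genes of the cluster, 6 had a peak.

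Under the basal plus extension rule, which lets 1 peak count for several genes, Fcgr4 was linked to 17 peaks, Fcgr3 to 15, Fcgr2b to 14, Fcgr1 to 13, Fcrla to 7, Fcer2a to 6, and Fcer1g and Fcgrt to 2 each. Fcer1a was linked to 0. The order of the genes thus changed at the top, where Fcgr2b had the most peaks by nearest TSS, and Fcgr1 moved from 3 to 13.

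In global alignments with gaps, 46.3 to 53.5% of the aligned positions were identical over the 36 pairs of promoter windows of the 9 genes. No other promoters were aligned for comparison, so these shares are not read as a likeness between the genes.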
